A study of Mus musculus with 12 samples.

Results

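Glucose transport and glycolysis were followed through 10 genes in splenic CD4+ T cells, a set that runs from entry of glucose into the cell to formation of lactate: Slc2a1, Hk2, Gpi1, Pfkp, Aldoa, Tpi1, Pgk1, Eno1, Pkm and Ldha. The genes were listed by name for their place in the pathway, with earlier results of these data known, and all 10 were found among the 55414 gene records of the count table and passed the filter on low counts in every comparison. The 12 libraries came from male wild-type BALB/c mice aged 18 weeks, in 4 groups of 3. CTL mice had no ligature, and LIP mice had ligature-induced periodontitis, in which a silk thread tied round an upper molar causes gum inflammation and bone loss. Cells of each group were taken uncultured (day 0) or after 2 days of culture with antibodies to TCRbeta and CD28 in the presence of IL-2 (day 2), a stimulus that activates T cells and makes them divide. The labels and the methods of the study give different doses of IL-2 and anti-TCRbeta, so no dose is stated. The CD4+ cells were obtained by removing other cells with antibodies, so that a small remainder of other splenic cells can stay in the sample. Libraries are named here by group and by the number in their label, as in LIP 90.

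Resting T cells use little glucose. When the T cell receptor and CD28 are engaged, T cells take up glucose through the transporter GLUT1, encoded by Slc2a1, and raise the enzymes that turn it into pyruvate and lactate, a state known as aerobic glycolysis. The first enzymes, hexokinase, glucose phosphate isomerase and phosphofructokinase, spend ATP to prime the sugar, aldolase and triose phosphate isomerase split it into 3-carbon units, and phosphoglycerate kinase, enolase and pyruvate kinase lead to pyruvate while ATP is regained. The transcription factors HIF-1 and MYC are known to act on many of these genes. RNA from a mixed sample measures a gene over all its cells, so fewer cells of a type and less RNA per cell cannot be told apart.

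Total counts ranged from 6249094 to 7845715 on day 0 and from 8691745 to 12866751 on day 2, and a level of 3 counts corresponded to between 0.269 and 0.452 CPM (counts per 1000000 counts of the scaled library). Cd4 stood at 422 to 645 CPM and Cd8a at 0.106 to 2.25 CPM in these libraries. The labels do not say whether each library is a separate animal, so p-values measure the spread between libraries. The LIP libraries of day 2 did not form 1 cluster for these genes. LIP 90 lay above every CTL library of day 2 for 10 of 10 genes, and LIP 96 and LIP 97 both lay below every CTL library for 7 of 10. The number of genes called between LIP and CTL on day 2 is therefore given with and without LIP 90, for the 10 genes and for each pathway list. LIP 90 was set apart by its values of these same genes. All p-values without it, also those of the interaction and of the lists, follow that choice and are given as description. The treatment labels of CTL 93 and LIP 96 on day 2 name anti-CD29, and those of CTL 97 and LIP 97 name anti-CD30, whereas the treatment protocol names anti-CD28 for all cultured cells.

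In GRCm39 the genes are protein-coding and lie on 5 autosomes and the X chromosome. Slc2a1 is at chr4:118965908-118996365, Hk2 at chr6:82699740-82751469, Gpi1 at chr7:33900755-33929780, Pfkp at chr13:6629798-6698970 and Aldoa at chr7:126393822-126399923. Tpi1 is at chr6:124787549-124791273, Pgk1 at chrX:105230706-105247305, Eno1 at chr4:150321073-150337027, Pkm at chr9:59563364-59586663 and Ldha at chr7:46490899-46505061. Several of them have near-identical copies elsewhere in the genome. Of the 100-base windows in the Eno1 transcript, 51.5% also occur in Eno1b, whose record held 29542 counts over all libraries against 49373 for Eno1, so the level of Eno1 is uncertain and the 2 records share reads. Windows of Aldoa and Pgk1 are shared to 85.3% and 67.0% with Gm57854 and Pgk1-rs7, but those records held 25 and 0 counts. For the other 7 genes at most 9.7% of windows occur in another gene. Values were counted per gene, so the PKM1 and PKM2 forms of pyruvate kinase made from Pkm were not separated.

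The stretch of 250 bases just before the annotated start is shown for 3 genes in which that stretch overlaps no annotated exon, because the 10 genes moved together on activation and HIF-1 and MYC recognise short core motifs. Capitals mark ACGTG and GCGTG, the core of the HIF-1 response element, on either strand; CACGTG, the E-box bound by MYC, contains ACGTG on both strands. The sequences are GRCm39, written 5′ to 3′ on the strand of the gene.
Pfkp, chr13:6698971-6699220, minus strand: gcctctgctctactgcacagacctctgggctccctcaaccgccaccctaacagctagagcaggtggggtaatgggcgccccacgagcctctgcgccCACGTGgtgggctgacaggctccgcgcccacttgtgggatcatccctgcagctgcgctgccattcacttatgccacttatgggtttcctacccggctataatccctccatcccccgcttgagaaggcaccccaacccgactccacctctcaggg
Pgk1, chrX:105230456-105230705, plus strand: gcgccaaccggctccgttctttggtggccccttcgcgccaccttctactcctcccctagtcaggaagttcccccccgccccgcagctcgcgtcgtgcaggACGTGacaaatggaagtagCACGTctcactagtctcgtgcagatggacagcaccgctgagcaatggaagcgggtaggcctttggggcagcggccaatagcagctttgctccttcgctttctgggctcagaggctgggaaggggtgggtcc
Slc2a1, chr4:118965658-118965907, plus strand: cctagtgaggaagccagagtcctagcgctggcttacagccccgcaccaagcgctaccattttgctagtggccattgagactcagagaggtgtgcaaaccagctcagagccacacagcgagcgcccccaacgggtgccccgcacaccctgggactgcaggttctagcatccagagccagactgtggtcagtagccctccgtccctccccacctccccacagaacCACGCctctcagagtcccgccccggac
ACGTG was found in 5 of the 10 promoters, those of Hk2, Pfkp, Aldoa, Pgk1 and Ldha, and in 17.0% of 21614 promoters of the same length. GCGTG was found in 3 of 10 (31.2% of all promoters) and CACGTG in 2 of 10, Pfkp and Ldha (6.3% of all promoters). Annotated exons of the gene or of a neighbour cover all 250 bases of this stretch in Aldoa and Pkm. They cover 186 bases in Gpi1, 131 in Ldha, 70 in Eno1, 17 in Hk2 and 14 in Tpi1. Such a match describes the letters and is not evidence that a factor was bound.

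**Figure D1:**
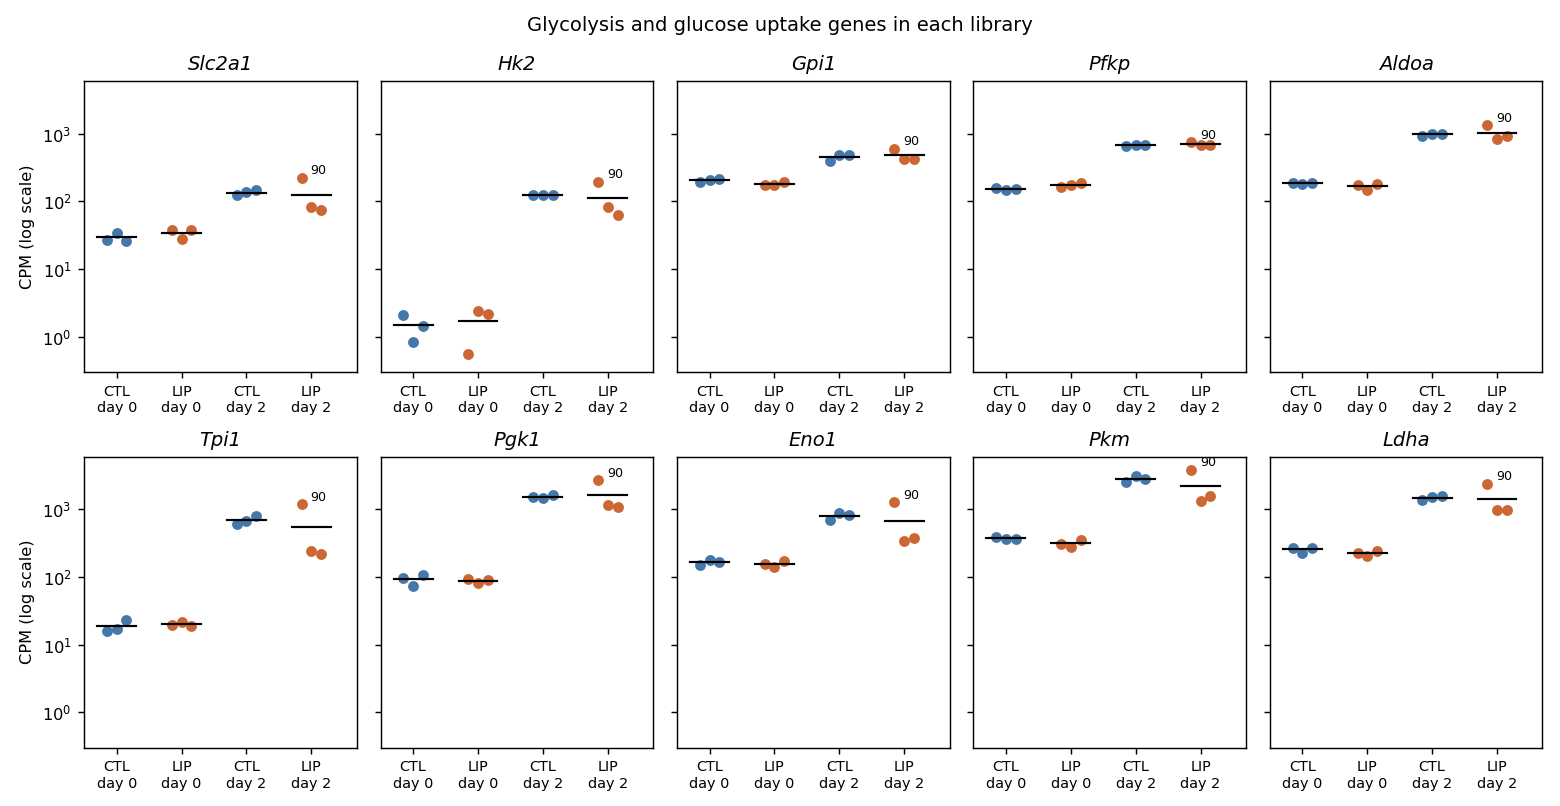
CPM of each gene on a log axis that is the same in all panels, by group and day. Each point is 1 library (CTL blue, LIP orange), the line is the mean of 3 libraries, and LIP 90 is labelled. All day 2 points lie above all day 0 points for each gene, and LIP 90 is the highest library of day 2 in each panel.

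On day 0 all of the genes but Hk2 stood well above the level of 3 counts. Divided by transcript length, Ldha was highest in CTL at 162 ± 14.8 CPM per kilobase (SD, n = 3), followed by Pkm at 153 ± 3.79, and the ranges of these neighbours overlapped. Aldoa (122 ± 2.18), Eno1 (72.2 ± 4.99), Gpi1 (70.1 ± 4.14), Pgk1 (51 ± 9.67) and Pfkp (35.2 ± 0.759) came next, and of these neighbours Eno1 and Gpi1 overlapped in range. Tpi1 stood at 11.7 ± 2.47, Slc2a1 at 6.6 ± 1.02 and Hk2 at 0.188 ± 0.0813 CPM per kilobase. The order in LIP on day 0 was the same gene for gene, with Pkm and Aldoa overlapping as well.

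After 2 days of culture the order in CTL had changed. Pkm was highest at 1142 ± 117 CPM per kilobase, apart in range from Ldha at 943 ± 63.9, and Pgk1 (845 ± 43.9) had passed Aldoa (644 ± 30.8). Tpi1 (429 ± 56.5) and Eno1 (352 ± 40.9) overlapped in range, as did Gpi1 (157 ± 16.8) and Pfkp (156 ± 1.56). Slc2a1 (30.3 ± 2.48) and Hk2 (15.9 ± 0.268) were still the lowest. In LIP on day 2 the means fell in the same order, from 921 ± 560 for Pkm to 14.6 ± 9.02 CPM per kilobase for Hk2, but 8 of 9 pairs of neighbours overlapped in range.

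The comparison of day 2 with day 0 asked what activation did within each group. Day 0 cells were uncultured and no group was cultured without the stimulus, so 2 days in culture and stimulation cannot be told apart, and activation stands here for both. All 10 genes rose in CTL and all 10 rose in LIP (edgeR quasi-likelihood test, Benjamini-Hochberg adjusted p under 0.05 over all 15475 genes tested), where 35.3% of all genes were called higher in CTL and 36.6% in LIP. For all 10 genes every library of day 2 lay above every library of day 0 in both groups, a pattern found in 37.2% of all genes for CTL and 37.4% for LIP. The median log2 fold change of the 10 was 2.47 in CTL and 2.65 in LIP, and that of all genes was -0.02 and -0.00. In total the 10 genes held 1436 to 1520 CPM in CTL and 1252 to 1478 CPM in LIP on day 0, and 8971 to 10083 CPM in CTL on day 2. Both comparisons held for the 10 genes whichever library was left out. Markers of other cells also changed between the days. In CTL the NK and cytotoxic markers summed to 71.6 to 87.2 CPM on day 0 and 21.3 to 28 CPM on day 2. In LIP they summed to 69.3 to 86.2 and 25.2 to 71.4 CPM. The B cell markers in CTL summed to 2.29 to 5.79 and 4.02 to 23.1 CPM. The part of these cells in the rise was not tested.

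Hk2 encodes hexokinase 2, the inducible enzyme that phosphorylates glucose and so keeps it in the cell. Its level in CTL was 2.11, 0.843 and 1.45 CPM on day 0 and 126, 122 and 124 CPM on day 2. In LIP it was 0.551, 2.39 and 2.14 CPM on day 0 and 194, 83.8 and 63.6 CPM on day 2. It was thus close to the lowest measurable level before culture, at 4 to 17 counts a library, and its fold change was the greatest of the 10 (log2 fold change 6.42 ± 0.49 SE in CTL, edgeR adjusted p = 8.31e-08, and 6.06 ± 0.48 in LIP, adjusted p = 1.04e-07). Slc2a1, the GLUT1 transporter, stood at 27.1, 34.6 and 26.3 CPM in CTL on day 0 and at 123, 136 and 145 CPM on day 2. The LIP libraries gave 37.6, 27.7 and 37.1 CPM for it on day 0 and 221, 81.6 and 73.6 CPM on day 2. The transporter thus rose 4.58-fold in CTL (edgeR adjusted p = 5.48e-05) and 3.67-fold in LIP (adjusted p = 0.000180), less than the hexokinase. LIP 90 carried a good part of both rises in LIP: without it Slc2a1 rose 2.28-fold and Hk2 43.4-fold in place of 66.9-fold.

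Tpi1 and Pgk1 followed Hk2 in size. Tpi1, triose phosphate isomerase, went from 15.8, 17.2 and 23.3 CPM to 614, 666 and 791 CPM in CTL, a 36.7-fold rise (log2 fold change 5.20 ± 0.57 SE, edgeR adjusted p = 2.70e-06). In LIP it went from 19.7, 21.7 and 18.6 CPM to 1190, 240 and 221 CPM (4.79 ± 0.56 on the log2 scale, adjusted p = 4.49e-06). Its gain in LIP 90 was thus several times that in the other two LIP libraries, and without LIP 90 the rise was 11.6-fold in place of 27.6-fold. Pgk1, phosphoglycerate kinase, went from 96.1, 74.0 and 109 CPM to 1519, 1476 and 1631 CPM in CTL, a log2 fold change of 4.05 ± 0.30 (edgeR adjusted p = 6.91e-08). In LIP it went from 92, 82.3 and 91.7 CPM to 2683, 1173 and 1072 CPM, a log2 fold change of 4.21 ± 0.30 (adjusted p = 4.67e-08) that became 3.67 ± 0.13 without LIP 90.

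The enzymes at the end of the pathway rose between 4 and 8 times in both groups with all libraries. With LIP 90 left out the rise in LIP was 4.67-fold for Pkm in place of 7.14-fold, 4.32-fold for Ldha in place of 6.40-fold and 2.27-fold for Eno1 in place of 4.19-fold. Pkm, pyruvate kinase, stood at 385, 368 and 370 CPM in CTL on day 0 and at 2522, 3093 and 2774 CPM on day 2 (log2 fold change 2.90 ± 0.30 SE, edgeR adjusted p = 1.76e-06). In LIP it went from 312, 279 and 355 CPM to 3830, 1350 and 1581 CPM, a change of 2.84 ± 0.30. Pkm held the greatest CPM of the set in CTL on both days. Ldha, the lactate dehydrogenase chain that favours lactate formation, went from 267, 230 and 273 CPM to 1381, 1549 and 1563 CPM in CTL (2.55 ± 0.28, adjusted p = 2.66e-06). In LIP it went from 227, 203 and 243 CPM to 2374, 963 and 967 CPM (2.68 ± 0.28). Eno1, enolase 1, went from 153, 176 and 168 CPM to 703, 885 and 835 CPM in CTL (2.29 ± 0.38) and from 157, 143 and 175 CPM to 1273, 337 and 380 CPM in LIP (2.07 ± 0.38). With the counts of its copy Eno1b added, its call was the same in both groups.

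Aldoa, Pfkp and Gpi1 completed the set. Aldoa, aldolase A, went from 188, 182 and 184 CPM to 919, 998 and 1001 CPM in CTL and from 176, 147 and 181 CPM to 1338, 824 and 938 CPM in LIP. Its log2 fold changes were 2.39 ± 0.16 and 2.62 ± 0.16 (edgeR adjusted p = 2.09e-08 and 9.28e-09). Pfkp, the platelet-type phosphofructokinase, stood at 155, 148 and 152 CPM on day 0 and 664, 676 and 675 CPM on day 2 in CTL. In LIP it stood at 164, 172 and 184 CPM on day 0 and at 749, 676 and 686 CPM on day 2, and its log2 fold changes were 2.15 ± 0.09 and 2.02 ± 0.09. Gpi1, glucose phosphate isomerase, changed least of the 10, from 190, 206 and 214 CPM to 400, 483 and 486 CPM in CTL, a 2.24-fold rise (log2 fold change 1.16 ± 0.14). In LIP it went from 175, 174 and 191 CPM to 595, 419 and 417 CPM, a 2.65-fold rise. The changes of these 3 genes in LIP were 2.40 ± 0.10, 1.98 ± 0.08 and 1.22 ± 0.10 without LIP 90.

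**Figure D2:**
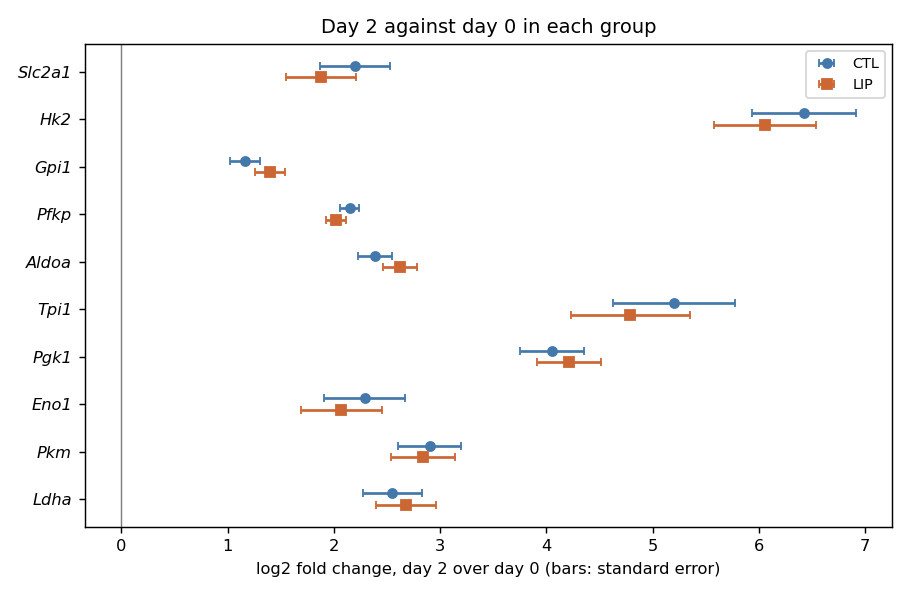
Log2 fold change of day 2 over day 0 for each gene, with the standard error from edgeR as bars, in CTL (circles) and LIP (squares). All 20 points lie above 0, from 1.16 for Gpi1 in CTL to 6.42 for Hk2 in CTL, and the bars of the 2 groups overlap for each gene.

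Scaling moved these contrasts as a whole, and all 10 genes were called higher under each scaling. With upper-quartile scaling the median of all genes shifted to -0.31 in CTL and -0.32 in LIP, and that of the 10 genes was 2.18 and 2.32. On library totals alone the medians of all genes were -0.21 and -0.36 and those of the 10 genes were 2.28 and 2.29. The share of called genes that were higher on day 2 was 51.1% in CTL and 51.0% in LIP with TMM scaling, 38.4% and 37.7% with upper-quartile scaling, and 42.4% and 36.2% on library totals.

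Whether activation differed between CTL and LIP was tested by the interaction of group and day. By the adjusted p of edgeR it differed for 0 of 10 genes and for 0.0517% of all 15475. At an unadjusted p under 0.05 the number was 0 of 10, beside 15.9% of all genes, and DESeq2 called 0 of 10 and 531 genes in all. The differences in log2 fold change, LIP minus CTL, ran from -0.41 ± 0.72 (SE) for Tpi1 to 0.24 ± 0.19 for Gpi1, with a median of -0.09 beside -0.00 for all genes. The standard errors were widest for Hk2 (0.82) and Tpi1 (0.72). Without LIP 90, 4 of the 10 were called lower (4.45% of all genes): Slc2a1 (-1.01 ± 0.19, edgeR adjusted p = 0.00527), Tpi1 (-1.67 ± 0.20, adjusted p = 0.000175), Eno1 (-1.11 ± 0.16, adjusted p = 0.000601) and Pkm (-0.69 ± 0.16, adjusted p = 0.0141).

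LIP was compared with CTL on day 0 to see whether periodontitis altered the genes before any culture. None of the 10 was called by edgeR's adjusted p or by DESeq2, and 3 had an unadjusted p under 0.05. Among all 14064 genes tested 0.427% were called by edgeR's adjusted p, and 13.9% had an unadjusted p under 0.05. The log2 fold changes, LIP over CTL, ran from -0.24 to 0.24 with a median of -0.06, beside 0.01 for all genes. Pfkp was the 1 gene with every LIP library above every CTL library (173 ± 10.1 CPM against 151 ± 3.27, SD, n = 3), as were 9.26% of all genes, at a log2 fold change of 0.20 ± 0.07 (SE; edgeR adjusted p = 0.240). Pkm and Aldoa had every LIP library below every CTL library, as did 9.85% of all genes. Pkm averaged 315 ± 38.2 CPM in LIP and 374 ± 9.27 CPM in CTL, a log2 fold change of -0.24 ± 0.09 (edgeR adjusted p = 0.253), and Aldoa differed by -0.13 ± 0.08 (adjusted p = 0.513). For Hk2, whose counts were few, the estimate of 0.24 had a standard error of 0.51. The 10 pancreatic acinar cell genes summed to 0.301, 0.120 and 0.395 CPM in CTL on day 0 and to 0.689, 15.2 and 7.08 CPM in LIP, and their part in the differences of day 0 was not tested.

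On day 2 the same comparison gave no call either. By edgeR's adjusted p 0 of 10 genes differed, at an unadjusted p under 0.05 also 0, and by DESeq2 0. Among all 14041 genes 0% were called by edgeR, with 2322 (16.5%) at an unadjusted p under 0.05 and 489 called by DESeq2. The log2 fold changes ran from -0.35 ± 0.57 for Tpi1 to 0.07 ± 0.31 for Pgk1 and 0.07 ± 0.18 for Aldoa, with a median of -0.10 beside -0.01 for all genes. On library totals alone those of Gpi1, Pfkp, Aldoa and Pgk1 turned from slightly positive to between -0.03 and -0.01. For Pfkp every LIP library lay above every CTL library (10.9% of all genes did so), although LIP 96 and the highest CTL library were both 676 CPM after rounding.

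The wide errors came with the split inside the LIP group. LIP 90 had 14448 CPM in the 10 genes together, LIP 96 had 6147 and LIP 97 had 6400, on either side of the 8971 to 10083 CPM of CTL. LIP 90 above every CTL library together with LIP 96 and LIP 97 below every CTL library was found for 7 of the 10 genes and for 6.60% of all 14041 genes, and the reverse pattern for 0 of 10 and for 4.08%. LIP 90 lay above every CTL library for 33.4% of all genes, and LIP 96 and LIP 97 both lay below for 24.7%. The ratio of LIP 90 to LIP 96 was greatest for Tpi1 at 4.95, followed by Eno1 at 3.78, Pkm at 2.84 and Slc2a1 at 2.70. It was 2.46 for Ldha, 2.32 for Hk2 and 2.29 for Pgk1. The ratio was least for Aldoa (1.62), Gpi1 (1.42) and Pfkp (1.11), whose LIP 96 and LIP 97 values were not both below CTL. By comparison the highest CTL library of day 2 exceeded the lowest by 1.02 to 1.29 times.

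**Figure D3:**
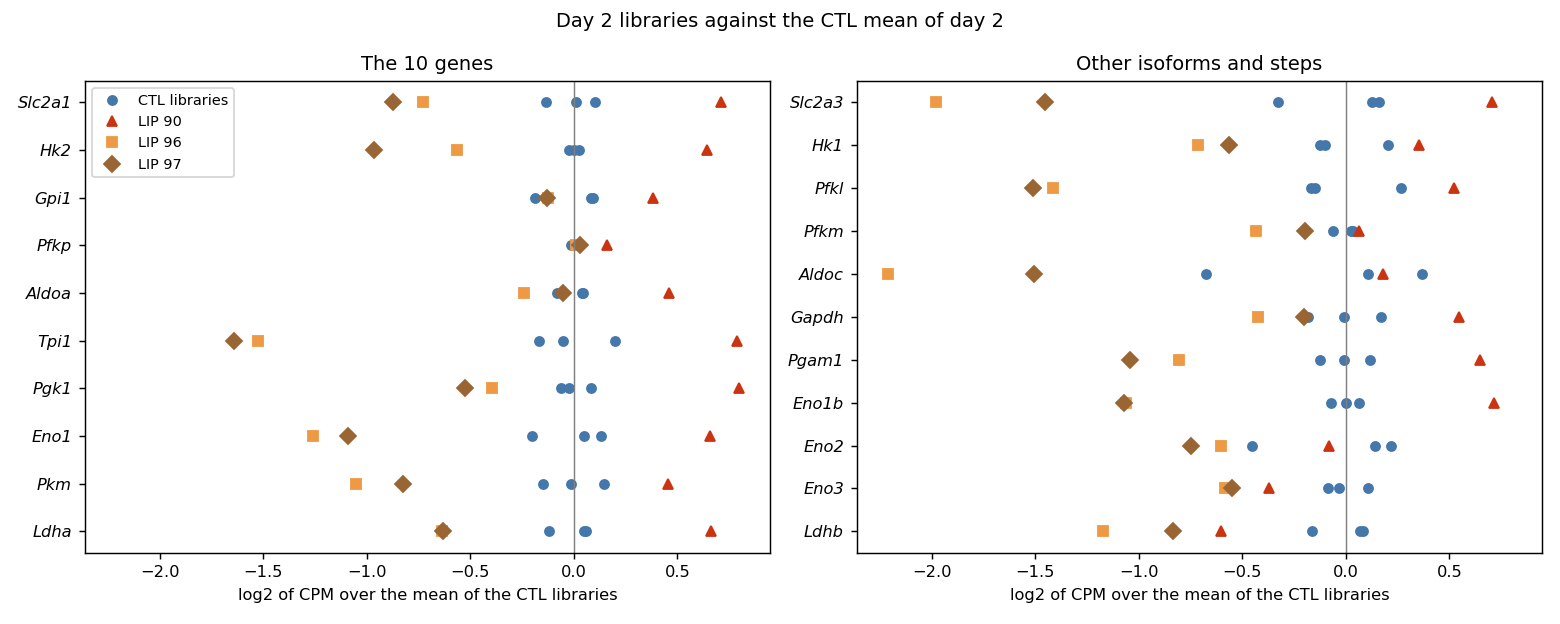
Log2 of the CPM of each day 2 library over the mean of the 3 CTL libraries, for the 10 genes (left) and for other isoforms and steps (right). LIP 90 (triangles) lies to the right of all CTL libraries (circles) for 10 of 10 genes, LIP 96 (squares) and LIP 97 (diamonds) lie to the left of them for 7, and for Ldhb and Eno3 all 3 LIP libraries lie to the left.

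Other measures of these libraries are given beside the split. Genes of proliferation summed to 6678 CPM in LIP 90, 5472 in LIP 96, 5319 in LIP 97 and 5115 to 6402 in CTL of day 2, where 2 of 12 followed the pattern of the split. LIP 90 lay above every CTL library for 8 of these 12 genes (33.4% of all genes), and LIP 96 and LIP 97 both lay below for 3 (24.7% of all genes). The 8 T cell identity genes summed to 4108, 4007 and 4280 CPM in LIP 90, LIP 96 and LIP 97 and to 4056 to 4404 in CTL, with 0 of 8 following it. The 8 B cell markers summed to 1.43 CPM in LIP 90, 37.0 in LIP 96 and 34.6 in LIP 97, and to 4.02, 4.78 and 23.1 CPM in CTL 92, CTL 93 and CTL 97. CTL 97 thus had more of them than the other CTL libraries, while its sum of the 10 genes was 10025 CPM, near the 10083 CPM of CTL 93. The 6 markers of NK and cytotoxic cells summed to 25.2, 71.4 and 46.6 CPM in the LIP libraries and to 21.3 to 28.0 CPM in CTL, and the 2 CD8 genes to 4.93, 13.2 and 9.20 CPM and to 4.43 to 6.33 CPM. The 9 myeloid markers stood at 2.51 to 7.96 CPM in all day 2 libraries, with S100a8 and S100a9 at 0. The 10 acinar cell genes stood at 3.49 to 10.4 CPM. Most of this was Prss2, at 2.98 to 10 CPM, while Cpa1, Pnlip and Cel were at 0 in all day 2 libraries. Total counts were 12866751 in LIP 90, 12175121 in LIP 96 and 8691745 in LIP 97. The part of these measures in the split was not tested.

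Leaving out LIP 90, the library set apart by its values of these same genes, changed the calls of day 2. The p-values without it follow that choice and give no separate support for a lower level in LIP. Of the 10 genes 7 were then called lower in LIP, where 6.19% of 14453 genes were, and their median log2 fold change moved from -0.10 to -0.67 while that of all genes was -0.00. Tpi1 changed most, at -1.56 ± 0.14 (SE; edgeR adjusted p = 0.000169), followed by Eno1 at -1.15 ± 0.14 (adjusted p = 0.000943) and Pkm at -0.91 ± 0.14 (adjusted p = 0.00384). Slc2a1 (-0.78 ± 0.12, edgeR adjusted p = 0.00301), Hk2 (-0.73 ± 0.13, adjusted p = 0.00699), Ldha (-0.62 ± 0.12, adjusted p = 0.00925) and Pgk1 (-0.44 ± 0.12, adjusted p = 0.0337) were the others. Gpi1 (-0.11 ± 0.12), Aldoa (-0.13 ± 0.12) and Pfkp (0.04 ± 0.10) did not pass. Omitting any of the other 5 libraries instead gave 0 calls among the 10. With LIP 90 left out, all 10 genes were still called higher on day 2 than on day 0 in LIP, at a median of 2.17 in place of 2.65.

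**Figure D4:**
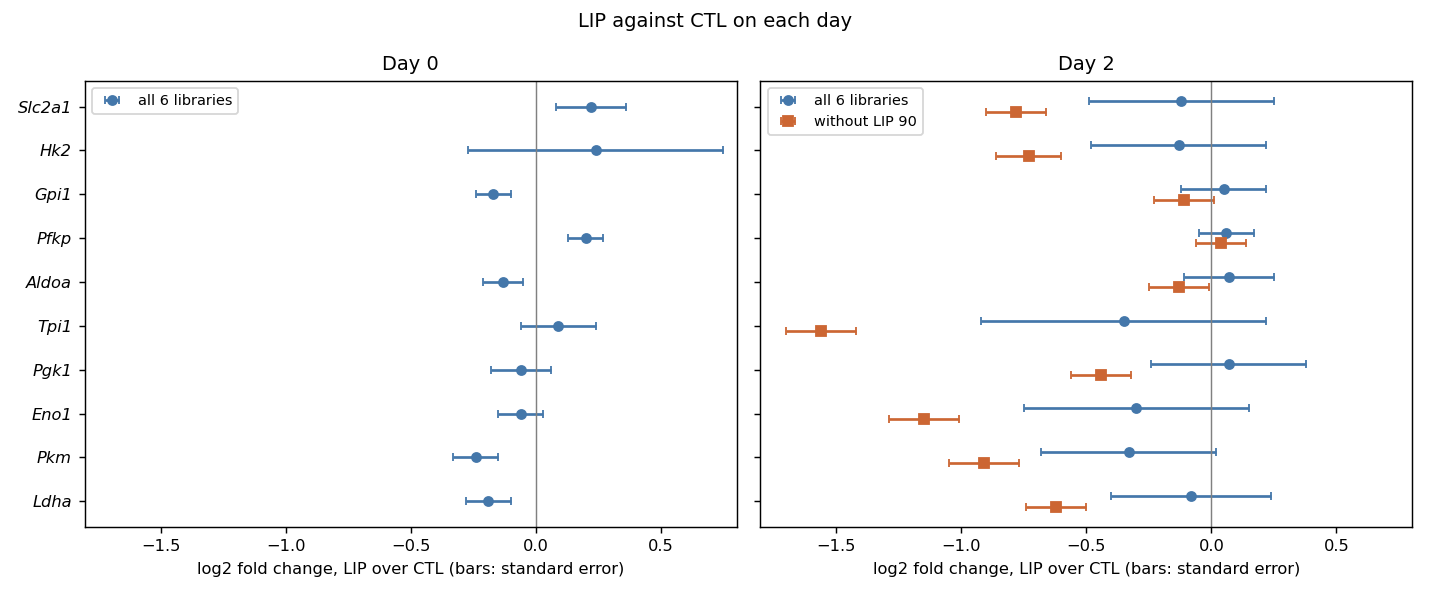
Log2 fold change of LIP over CTL for each gene, in the left panel for day 0 and in the right panel for day 2, with the standard error from edgeR as bars. Day 2 is shown with all 6 libraries (circles) and without LIP 90 (squares): with all 6 the points lie between -0.35 and 0.07, and without LIP 90 they lie between -1.56 and 0.04.

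Genes that encode other forms of the same proteins, or the remaining steps, moved in the same direction on activation with a few exceptions. Of 24 listed, 16 were tested, and 12 rose and 1 fell in CTL while 11 rose and 1 fell in LIP, with medians of 1.66 and 1.15. Among all genes 35.3% rose and 33.7% fell in CTL and 36.6% rose and 35.2% fell in LIP, and the counts of this list and the next ones are to be read beside those shares. The greatest changes in CTL were those of Aldoc (aldolase C, log2 fold change 4.30 ± 0.62, from 0.603 to 1.45 CPM on day 0), Eno2 (enolase 2, 4.04 ± 0.32) and the transporter gene Slc2a6 (3.84 ± 0.30). Gapdh, glyceraldehyde phosphate dehydrogenase, rose by 2.93 ± 0.21 in CTL and 3.34 ± 0.22 in LIP, and Pgam1, phosphoglycerate mutase, by 2.69 ± 0.34 and 2.68 ± 0.34 (1.96 ± 0.11 in LIP without LIP 90). Of the transcript windows of Gapdh 78.0% occur in Gm7336, which held 23341 counts against 92195, so its level is uncertain. Hk1, the widely expressed hexokinase, rose by 1.13 ± 0.22 in CTL and 1.01 ± 0.22 in LIP, much less than Hk2.

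The second major transporter of T cells, GLUT3, encoded by Slc2a3, was not called with all libraries. It stood at 79.1, 69.8 and 75.0 CPM in CTL on day 0 and at 170, 166 and 121 CPM on day 2 (log2 fold change 1.03 ± 0.48, edgeR adjusted p = 0.0704). Every CTL library of day 2 thus lay above every one of day 0, and over the alternatives the adjusted p ran from 2.32e-06 to 0.165. The rise in CTL was called with no filter, in a fit of the 6 CTL libraries alone, and without LIP 90 (adjusted p = 1.12e-05), LIP 96 or LIP 97, libraries that enter this contrast through the shared estimate of spread. In LIP it stood at 81.8, 80.3 and 73.5 CPM on day 0 and at 248, 38.6 and 55.5 CPM on day 2 (0.54 ± 0.48, adjusted p = 0.317). LIP 96 and LIP 97 thus lay below every uncultured library for this gene, while LIP 90 lay above every other library, and the change in LIP without LIP 90 was -0.74 ± 0.16 (edgeR adjusted p = 0.00102). Pfkl, the liver-type phosphofructokinase, showed the split as well: 152, 154 and 206 CPM in CTL on day 2 and 246, 64.2 and 60.1 CPM in LIP. Its rise in LIP (1.16 ± 0.41, edgeR adjusted p = 0.0200) was 0.17 ± 0.14 without LIP 90 (adjusted p = 0.290). Pfkm, the muscle-type form, had less spread, with 24.2, 22.6 and 24.0 CPM in CTL and 24.7, 17.5 and 20.6 CPM in LIP.

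None of the 15 genes of this list tested on day 2 differed between LIP and CTL by edgeR's adjusted p, 4 had an unadjusted p under 0.05 (16.5% of all genes did), all of them lower in LIP, and the median log2 fold change was -0.44. With LIP 90 left out 8 of the 15 were called lower and 0 higher, at a median of -0.65, where 6.19% of all genes were called lower and 7.74% higher. Aldoc (-1.82 ± 0.34), Slc2a3 (-1.69 ± 0.20) and Pfkl (-1.44 ± 0.15) differed most. The interaction, called for 0 of 16 with all libraries, was then called lower for 7 of 16 (4.45% of all genes). Ldhb, the lactate dehydrogenase chain that favours pyruvate, did not follow the split. It stood at 65.4, 64.7 and 55.2 CPM in CTL and at 40.7, 27.4 and 34.6 CPM in LIP on day 2, with every LIP library below every CTL library, as for 10.5% of all genes. The log2 fold change was -0.86 ± 0.16 (edgeR adjusted p = 0.108; -0.98 ± 0.15 and 0.00362 without LIP 90), and over all alternatives its adjusted p ran from 0.00136 to 0.528. Its rise on activation was 2.12 ± 0.16 in CTL and 1.14 ± 0.16 in LIP, and the interaction of -0.97 ± 0.22 had an edgeR adjusted p of 0.0871 (0.00329 without LIP 90). Eno3, the muscle enolase, also had every LIP library below every CTL library, at 20.5, 17.7 and 18.1 CPM against 25.9, 28.5 and 25.0 CPM (-0.51 ± 0.13, edgeR adjusted p = 0.150, and 0.0280 without LIP 90).

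Pathways that branch from glycolysis were followed as 3 lists. Of the 5 genes that make or break down fructose 2,6-bisphosphate, the activator of phosphofructokinase, 3 rose and 1 fell in CTL and 2 rose and 1 fell in LIP. Pfkfb3 rose by 1.00 ± 0.22, Pfkfb1 rose by 1.16 ± 0.34 and Pfkfb2 fell by 1.18 on the log2 scale in CTL. In the pentose phosphate pathway, which draws off glucose 6-phosphate to make NADPH and ribose, 7 of 8 genes rose and 1 fell in both groups. Tkt (transketolase, 1.83 ± 0.15), G6pdx (glucose 6-phosphate dehydrogenase, 1.60 ± 0.23) and Pgd (1.59 ± 0.26) led in CTL. For gluconeogenesis and glycogen 6 of 10 tested genes rose and 1 fell in CTL and 7 rose in LIP, with Pcx (2.09 ± 0.31), Pgm1 (1.99 ± 0.32) and Gys1 (1.23 ± 0.15) leading in CTL. Between LIP and CTL, 0 of 5, 0 of 8 and 0 of 10 genes of these lists were called by edgeR on day 0 or on day 2. At an unadjusted p under 0.05 the numbers were 0, 0 and 2 on day 0 and 0, 0 and 4 on day 2, beside 13.9% and 16.5% of all genes. The 2 of day 0 were 1 higher and 1 lower in LIP, and the 4 of day 2 were all higher. Without LIP 90 calls appeared on day 2 in each list, where 7.74% of all genes were called higher and 6.19% lower. Pfkfb3 (-0.80 ± 0.13) was lower in the first, Pgd (-0.77 ± 0.14) and G6pdx (-0.63 ± 0.16) were lower in the second, and in the third 2 genes were higher and 3 lower, Pcx (-0.97 ± 0.17) and Pgm1 (-0.86 ± 0.12) among the latter.

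Export of lactate and entry of pyruvate into mitochondria were followed with 17 genes, of which 15 were tested. In CTL 8 rose and 0 fell, and in LIP 10 rose and 1 fell. Slc16a3, the exporter MCT4, rose most, from 3.16, 4.09 and 4.74 CPM to 119, 136 and 136 CPM in CTL (log2 fold change 5.01 ± 0.59, edgeR adjusted p = 4.88e-06). In LIP it rose from 5.24, 5.91 and 6.15 CPM to 211, 43.2 and 43.0 CPM (4.11 ± 0.56), and without LIP 90 the change was 2.90 ± 0.14, or 7.49-fold in place of 17.2-fold. The other exporter, MCT1 from Slc16a1, rose by 2.35 ± 0.19 in CTL and 2.18 ± 0.18 in LIP, and Bsg, the chaperone of both exporters, by 2.43 ± 0.31 and 2.16 ± 0.31 (1.52 ± 0.11 in LIP without LIP 90). Of the 15 genes 6 showed the split of the LIP libraries on day 2 (6.60% of all genes did), Slc16a3 and Bsg among them. Between LIP and CTL 0 of 15 were called by edgeR on either day, and 3 had an unadjusted p under 0.05 on day 0 and 2 on day 2, beside 13.9% and 16.5% of all genes. The 3 of day 0 were 2 higher and 1 lower in LIP, and the 2 of day 2 were higher. With LIP 90 left out 1 was called higher on day 2 (7.74% of all genes) and 4 were called lower (6.19%), Slc16a3 (-1.58 ± 0.12, edgeR adjusted p = 6.30e-05) and Bsg (-0.93 ± 0.11) among them.

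Regulators of the pathway changed in both directions on activation. Of 16 genes 7 rose and 7 fell in CTL, and 6 rose and 6 fell in LIP, shares close to those of all genes. Irf4, a transcription factor induced by receptor signals, rose by 6.06 ± 0.19 in CTL and 6.19 ± 0.19 in LIP. Txnip, an arrestin that lowers glucose uptake, fell from 1397, 1197 and 1499 CPM to 71.4, 58.3 and 68.5 CPM in CTL, and from 1158, 1088 and 1065 CPM to 70.1, 124 and 104 CPM in LIP. Egln3, a prolyl hydroxylase that acts on HIF-1, rose by 3.46 ± 0.51 in CTL. Myc rose by 1.60 ± 0.21 in both groups. Hif1a, the oxygen-regulated part of HIF-1, rose by 3.12 ± 0.16 in CTL and 3.60 ± 0.16 in LIP, and on day 2 it stood at 1469, 1290 and 1112 CPM in CTL and at 1331, 2058 and 1838 CPM in LIP. LIP 96 and LIP 97, the libraries with the lower glycolytic transcripts, thus had the most Hif1a. Between LIP and CTL 0 of 16 regulators were called by edgeR on either day, with 1 at an unadjusted p under 0.05 on day 0 and 3 on day 2. Among all genes 13.9% and 16.5% had such a p. The 1 of day 0 was lower in LIP, and the 3 of day 2 were 1 higher and 2 lower. Without LIP 90, 4 of 16 were called higher in LIP on day 2 and 2 lower, beside 7.74% and 6.19% of all genes. Txnip (0.80 ± 0.13, edgeR adjusted p = 0.00457), Hif1a (0.61 ± 0.14, adjusted p = 0.0215) and Irf4 (0.46 ± 0.11) were among the higher, and Egln3 (-0.58 ± 0.16) was among the lower.

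HIF-1 targets that take no part in glycolysis also rose on activation. Of 16, 14 were tested, and 10 rose and 1 fell in CTL while 9 rose and 1 fell in LIP. Ak4, an adenylate kinase of mitochondria, rose in CTL from 0.301, 0.241 and 0.263 CPM to 41.7, 36.7 and 55.2 CPM. Vegfa, a growth factor of blood vessels, rose from 0.151, 0.722 and 0.132 CPM to 19.2, 20.2 and 17.3 CPM. All day 0 libraries of CTL for Ak4, and all but 1 for Vegfa, lay under the level of 3 counts, so no fold change is given for them. Bnip3, a mitophagy receptor, rose by 4.34 ± 0.75 on the log2 scale. On day 2 Bnip3 stood at 72.0, 61.0 and 75.3 CPM in CTL and at 142, 22.4 and 13.7 CPM in LIP, and 7 of the 14 genes had this pattern, as had 6.60% of all genes. Vegfa did not: all LIP libraries, at 30.3, 42.7 and 44.4 CPM, lay above the 17.3 to 20.2 CPM of CTL (log2 fold change 1.04 ± 0.18, edgeR adjusted p = 0.101), and it was called without LIP 90 (1.22 ± 0.13, adjusted p = 0.000509). Ndrg1, Ero1a and Nampt, named for this pattern, also had every LIP library of day 2 above every CTL library, as had 10.9% of all genes. Of the 14 genes 0 were called between LIP and CTL on day 2 with all libraries. An unadjusted p under 0.05 was found for 4 (16.5% of all genes), all of them higher in LIP. Without LIP 90 Vegfa was higher and 6 were lower, Ak4 (-2.11 ± 0.20) and Bnip3 (-1.91 ± 0.20) among them, where 7.74% of all genes were higher and 6.19% lower. On day 0 P4ha1, a collagen prolyl hydroxylase, was the 1 gene of all these pathway lists that was called between LIP and CTL, where 0.427% of all genes were. It stood at 65.3, 62.8 and 68.7 CPM in LIP and at 87.4, 86.8 and 98.8 CPM in CTL (-0.47 ± 0.08, edgeR adjusted p = 0.0336), and it is named here because it was called.

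The 12 proliferation genes were raised in both groups, 12 of 12 in each, with Bub1 (5.53 ± 0.31), Top2a (5.50 ± 0.39) and Cdk1 (5.37 ± 0.31) leading in CTL. On day 2 0 of 12 differed between LIP and CTL by edgeR, with 0 at an unadjusted p under 0.05, and their median log2 fold change was -0.02. Without LIP 90 the number called was still 0 of 12, at a median of -0.11, where 6.19% of all genes were called lower and 7.74% higher.

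Genes whose level followed the 10 most closely were sought among 9454 genes with a mean of at least 10 CPM. Each library's log2 CPM was set against the mean of its own group and day, and the mean of these deviations over the 10 genes was the reference, at 0.82 in LIP 90, -0.40 in LIP 96 and -0.42 in LIP 97 and between -0.10 and 0.12 in the other libraries. Outside the lists, Nptn, which encodes neuroplastin, was closest with a Pearson r of 0.991 over 12 libraries, then Tcp1 (0.987) and Hsph1 (0.984), which encode protein folding factors, Cyb5b (0.984) and the RNA-binding protein gene Pcbp1 (0.977). The 10 genes themselves had r from 0.711 for Hk2 to 0.989 for Ldha, values raised because each gene is part of the reference. These values describe 12 points that share their libraries and scaling, the 5 genes were picked as the highest outside the lists, and the split of LIP 90 from LIP 96 and LIP 97 carries much of them. With LIP 90 and LIP 97, the libraries farthest from the median, left out, r was between 0.932 and 0.977 for the 5 genes and between 0.405 for Hk2 and 0.946 for Ldha among the 10. LIP 96 was still in these values, so likeness apart from the split was not tested.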

How the data were processed

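RNA from 12 libraries was sequenced by the authors after rRNA depletion with a directional library kit. Per the labels, reads were checked with FastQC 0.11.9, trimmed with Trimmomatic, aligned with Bowtie2 and quantified with RSEM 1.3.0 on GRCm39. The annotation release is not given in the sources used here. The expected counts that RSEM estimated for the authors were deposited for 55414 gene records without normalization; 73267 values were not whole, and all were rounded. The deposited result tables hold the authors' CPM, fold changes and p-values, and served only to pair 15174 gene IDs with symbols. In them 2 columns of per-library values, both headed as LIP of day 2, matched no labelled sample and were not used. The split of LIP on day 2 was thus seen in the 3 labelled libraries only.

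The 10 genes and the pathway and marker lists were chosen with earlier results of these data known. LIP was compared with CTL within each day over 6 libraries, and day 2 with day 0, and the interaction, over 12, with edgeR 4.0.16 (filterByExpr, TMM, quasi-likelihood test, Benjamini-Hochberg over all genes tested, R 4.3.3). DESeq2 1.42.0, other scalings, no filter, other fits, summed retrocopies and leaving out each library were alternatives, and a replicate block was added after seeing the data. CPM used TMM-scaled totals over all libraries, and levels were divided by the canonical transcript length (GENCODE vM39) where genes are compared. Named genes are the 10, their isoform partners, Hif1a, Myc, Txnip, Slc16a1 and Slc16a3. In each pathway list and for proliferation the 3 called genes with the largest change in CTL are named as well. The lists of cell type markers are given mainly as sums. A further marker list is not reported here. The test was checked on simulated data in which 200 genes were changed.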

Additional observations from a re-analysis of the deposited data

Results flagged for a closer look

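Slc2a6, which encodes the transporter GLUT6, was higher in every LIP library than in every CTL library on day 0, as were 9.26% of all genes, and lower in every one on day 2, as were 10.5%. On day 0 it stood at 3.86, 2.81 and 2.94 CPM in LIP and at 2.26, 2.41 and 2.24 CPM in CTL (log2 fold change 0.48 ± 0.28, edgeR adjusted p = 0.475). On day 2 it stood at 21.9, 11.0 and 26.3 CPM in LIP and at 30.0, 35.9 and 34.0 CPM in CTL (-0.77 ± 0.28, adjusted p = 0.229). The interaction of group and day was -1.23 ± 0.43 and missed the threshold (edgeR adjusted p = 0.182), and over all alternatives its adjusted p ran from 0.0235, with no filter on low counts, to 0.348.

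Pdha1, a subunit of pyruvate dehydrogenase, went the other way, with every LIP library lower on day 0 (9.85% of all genes) and higher on day 2 (10.9%), and is named because of this pattern. On day 0 it stood at 91.5, 89.2 and 89.3 CPM in LIP and at 98.7, 104 and 99.6 CPM in CTL (-0.16 ± 0.07, edgeR adjusted p = 0.321). On day 2 it stood at 137, 136 and 142 CPM in LIP and at 101, 114 and 110 CPM in CTL (0.34 ± 0.11, adjusted p = 0.193, and 0.0439 without LIP 90), so the LIP libraries lay together for this gene. The interaction was 0.52 ± 0.12 (edgeR adjusted p = 0.0839), and without LIP 90 it was 0.53 ± 0.11 (adjusted p = 0.00964).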

How the results depend on the processing

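All 10 genes were called higher on day 2 than on day 0 in CTL and in LIP under each alternative run, and 0 of 10 were called between LIP and CTL on day 0. Apart from the replicate block described at the end, only the omission of LIP 90 gave calls among the 10 on day 2, so the number of the 10 genes called there ran from 0 to 7 as libraries were left out, and from 0 to 4 for the interaction. Counts over all genes moved more, and the cause was not tested. On day 0 the 60 calls became 645 with no filter, 206 with DESeq2, 12 in 1 fit of all libraries and 131 by unadjusted p with a log2 fold change over 1. On day 2 the 0 calls became 1 on library totals, 662 with no filter, 489 with DESeq2, 775 in 1 fit of all libraries and 521 by unadjusted p with a fold change. Leaving out 1 library gave 13 to 658 calls on day 0, lowest without LIP 93 and highest without CTL 94, and 0 to 2014 on day 2. The 8 calls of the interaction became 97 on library totals, 815 with no filter and 531 with DESeq2, and 1 to 1596 as libraries were left out. With a log2 fold change over 1 required, the calls of day 2 against day 0 were 6134 in CTL and 6776 in LIP. On library totals 9.3% of interaction calls and 30.2% of day 0 calls were higher, against 62.5% and 13.3%.

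Directions turned on library totals for uncalled values of Pgk1 and Eno1 on day 0 (both 0.01), of Gpi1 and Pfkp (-0.03) and Aldoa and Pgk1 (-0.01) on day 2, and of Pgk1 (-0.02) and Ldha (-0.04) in the interaction. For Pdha1 the change from day 0 to day 2 in CTL was 0.10, with ranges that overlapped. It became -0.18 with upper-quartile scaling and -0.09 on totals, and under no alternative was its edgeR or DESeq2 adjusted p under 0.0552. Leaving out 1 library gave ranges across 0 on day 0 for Hk2 (-0.08 to 0.65), Tpi1 (-0.02 to 0.27), Pgk1 (-0.21 to 0.07) and Eno1 (-0.14 to 0.01). On day 2 it did so for Slc2a1 (-0.78 to 0.15), Hk2 (-0.73 to 0.15), Gpi1 (-0.11 to 0.15), Aldoa (-0.13 to 0.23), Tpi1 (-1.56 to 0.03), Pgk1 (-0.44 to 0.31), Eno1 (-1.15 to 0.02) and Ldha (-0.62 to 0.15). In the interaction the ranges were -0.00 to 0.37 for Aldoa, -0.39 to 0.39 for Pgk1, -1.11 to 0.10 for Eno1, -0.69 to 0.20 for Pkm and -0.44 to 0.36 for Ldha. That of Slc2a3 from day 0 to day 2 in LIP was -0.74 to 0.97. With 3 libraries a group and 4 to 17 counts of Hk2 on day 0, small differences of that gene were not detectable.

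CTL and LIP share 1 replicate number on each day, and the 2 days of a group share none. LIP of day 0 and CTL of day 2 share the numbers 92 and 93. A fit of all 12 libraries with the replicate number as a block was added after seeing the data and left 1 residual degree of freedom. The 4 libraries whose number occurs once, LIP 90 and LIP 96 among them, do not enter its contrasts, so LIP and CTL of day 2 were compared through LIP 97 and CTL 97. It called 61 genes on day 0 and 1404 on day 2, 6847 and 6884 for day 2 against day 0 in CTL and LIP, and 550 for the interaction. Of the 10 genes it called 0 on day 0, 7 on day 2, 10 in each group against day 0 and 3 for the interaction. Deviations of same-numbered libraries from their group means correlated at -0.05 to 0.10, and 2 of 8 libraries correlated best with their own number. With so few libraries in each group mean, these values cannot show whether a shared number marks a shared animal or batch.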

Other observations

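A few genes of the lists moved against the glycolytic genes in LIP 96 and LIP 97. They were picked after their values were seen and are given as values. Pck2, the mitochondrial phosphoenolpyruvate carboxykinase, stood at 21.9 CPM in LIP 90, 176 in LIP 96 and 163 in LIP 97, against 17.8 to 22.2 CPM in CTL of day 2 and 18.2 to 23.5 CPM in all libraries of day 0. Its log2 fold change of LIP over CTL on day 2 was 2.54 ± 0.63 (edgeR adjusted p = 0.140), and 3.06 ± 0.13 without LIP 90 (adjusted p = 2.20e-06). Arrdc4, an arrestin related to Txnip, stood at 5.11, 23.4 and 21.9 CPM in LIP 90, LIP 96 and LIP 97 and at 6.70 to 9.43 CPM in CTL of day 2. Pdk1, the kinase that inhibits pyruvate dehydrogenase, followed the glycolytic genes instead, at 89.9, 18.7 and 20.2 CPM in the LIP libraries and at 52.3 to 60.3 CPM in CTL.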
